A study of Mus musculus with 10 samples.

Results

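Endothelial cells line the vessel wall and hold blood fluid on their surface. Thrombomodulin (*Thbd*) binds thrombin and turns it towards protein C, which is presented by the endothelial protein C receptor (*Procr*), while tissue factor pathway inhibitor (*Tfpi*) blocks the tissue factor (*F3*) that starts clotting and von Willebrand factor (*Vwf*) captures platelets. Clots are dissolved by plasmin, which is made from plasminogen by tissue-type (*Plat*) or urokinase-type (*Plau*) plasminogen activator, the latter held at the cell surface by its receptor uPAR (*Plaur*). The 8 genes described here are the rows with these 8 names among 27024 rows with a gene name, and every member was found. The rule that picks them uses names and no measured value, but the names were chosen with earlier results of these data known.

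The cells were bEnd.3, an immortalised line of mouse brain endothelial cells with WT genotype, cultured in high glucose medium with serum. They received either saline (5 samples, replicates 1, 2, 3, 4 and 5) or StcE at 5 nM (5 samples, replicates 1, 2, 3, 5 and 6), and both groups were collected after 16 h. StcE is a bacterial mucinase, a protease that cleaves proteins carrying dense mucin-type O-glycans, and the comparison asked how RNA in brain endothelial cells changed when these proteins were cleaved. The controls received saline and not an inactive enzyme, so that cleavage and any other effect of the enzyme preparation cannot be told apart. Nothing in the labels states that the samples came from separate cultures, and the p-values then measure the spread between these samples.

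RNA levels were given as FPKM, fragments per kilobase of exon scaled for the depth of each sample, which allows genes to be compared per length. Whole fragments could be recovered for all 8 members. Over the 25898 genes with whole fragments in every sample, 21864604 to 33147402 fragments per sample were recovered, a part of the full depth. Of 10 endothelial markers, all 10 were tested and their summed level was 1868 to 2005 FPKM with saline and 1816 to 1890 FPKM with StcE. After StcE, 5 of the 10 were lower at a limma adjusted p under 0.05 (*Pecam1*, *Tie1*, *Tek*, *Erg* and *Esam*) and 1 was higher (*Egfl7*). Of all tested genes, 6.41% were lower and 5.52% higher. The call of *Erg* was lost in 15 of 22 alternative settings. The part of these changes in the results below was not tested. In bulk RNA, fewer cells of a type and less RNA per cell cannot be told apart. Markers of pericytes and smooth muscle summed to at most 0.276 FPKM in any sample and those of astrocytes and neurons to at most 0.0827 FPKM. Fibroblast markers summed to 1.20 to 1.54 FPKM over both groups, and no single sample had more than 0.00198 FPKM of the leukocyte marker *Ptprc*. The macrophage and leukocyte list summed to 17.7 to 21.7 FPKM, nearly all *Cd68*, and the platelet list to 13.2 to 17.3 FPKM, mostly *Pf4*.

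Upstream sequences were given by RefSeq (GRCm38.p6) for 4 of the members, *Procr*, *Plaur*, *F3* and *Tfpi*. Sequences for *Procr* and *Plaur* are printed because both genes rose after StcE, and that for *F3* because it holds the same motif although its RNA was barely detected. Capitals mark TGANTCA, the AP-1 motif bound by dimers of the Jun and Fos families, which reads the same on both strands. The *Procr* stretch (chr2:155750967-155751116, plus strand) ends where the first exon of GENCODE vM21 begins. The RefSeq start, from which distances are counted below, lies further downstream. Of the 250 bases before it, the last 100 are exon in GENCODE and are not printed.
*Procr*: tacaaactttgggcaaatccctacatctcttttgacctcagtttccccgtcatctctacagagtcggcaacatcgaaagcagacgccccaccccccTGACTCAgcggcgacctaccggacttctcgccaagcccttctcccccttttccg
The *Plaur* stretch (chr7:24462233-24462482, plus strand) lies outside every annotated exon and holds 1 match.
*Plaur*: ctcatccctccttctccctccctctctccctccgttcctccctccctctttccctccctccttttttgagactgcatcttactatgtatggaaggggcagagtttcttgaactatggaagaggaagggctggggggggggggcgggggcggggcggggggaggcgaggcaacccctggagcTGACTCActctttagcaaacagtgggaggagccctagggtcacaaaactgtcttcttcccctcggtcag
The *F3* stretch (chr3:121723287-121723536, plus strand) holds 2 matches and in part overlaps an unclassified gene model on the opposite strand, *Gm43823*.
*F3*: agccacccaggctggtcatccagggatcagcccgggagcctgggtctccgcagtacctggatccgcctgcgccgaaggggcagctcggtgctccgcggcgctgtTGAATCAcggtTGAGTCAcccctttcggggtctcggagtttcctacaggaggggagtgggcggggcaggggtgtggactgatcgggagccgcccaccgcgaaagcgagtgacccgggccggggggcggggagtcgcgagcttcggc

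The motif began 154 bases upstream of the RefSeq start of *Procr*, 69 bases upstream of that of *Plaur*, and 146 and 135 bases upstream of that of *F3*. Neither of the 2 upstream windows of *Tfpi* held it. Among 32851 upstream windows of the same 250 bases, 6.75% held at least 1 match. The other motifs searched, on both strands, were each found in more of these windows. The ETS motif AGGAAG (29.5% of windows) was found in *Plaur* and in 1 *Tfpi* window, the SP1 motif GGGCGG (32.7%) in *Plaur*, *F3* and both *Tfpi* windows, the KLF motif CACCC (52.0%) in *Procr*, *F3* and both *Tfpi* windows, and the TATA box TATAAA (12.4%) in 1 *Tfpi* window. Of the 3 matches of GGGCGG in *Plaur*, 2 share a base, and 1 CACCC match in *F3* shares bases with an AP-1 match. These are matches of letters and not measured binding sites, and the motifs were chosen after the values had been seen.

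The members kept the same order of level in both groups. *Procr* was the 23rd most abundant of all rows, with 783.6 ± 15.8 FPKM (SD, n = 5) with saline and 906.4 ± 36.5 with StcE. It was followed by *Plau* (rank 114), *Thbd* (158), *Plaur* (453), *Tfpi* (1989), *Plat* (9061), *Vwf* (10587) and *F3* (13806). *F3*, the trigger of clotting, had the lowest level, at 0.217 ± 0.0396 FPKM (SD, n = 5) with saline. Within each group, the samples of neighbouring members in this order did not overlap.

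**Figure D1:**
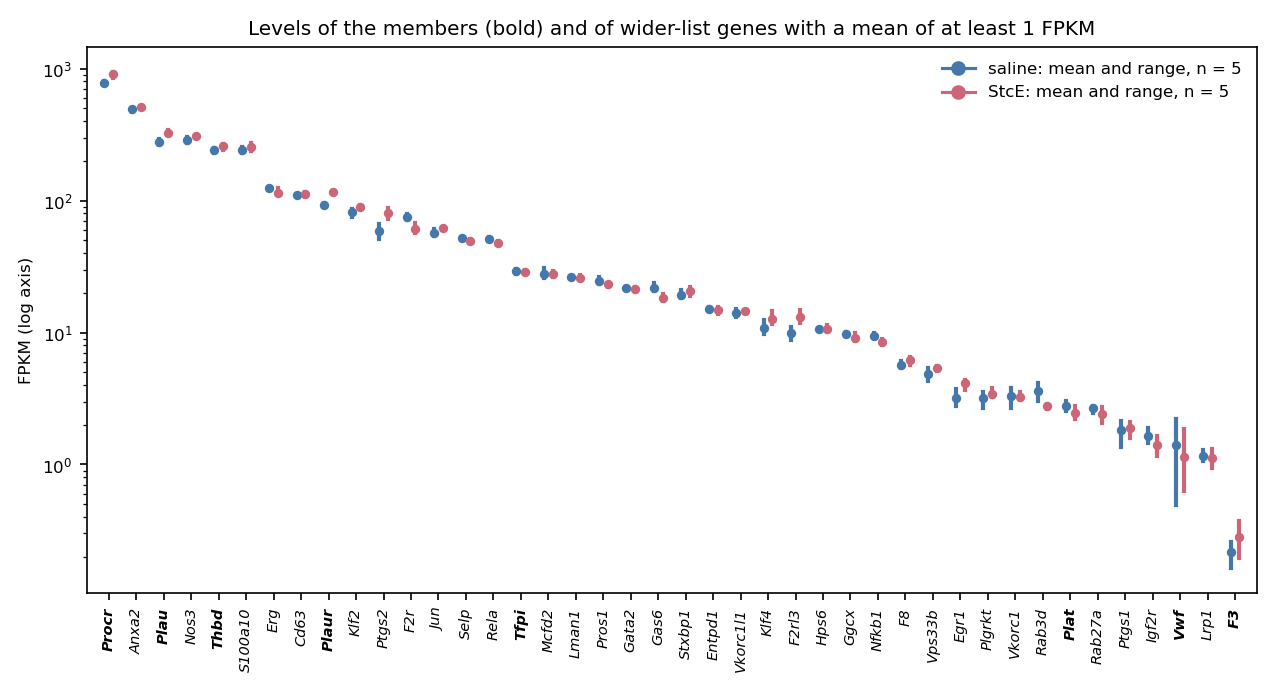
FPKM (log axis) of the 8 members (bold) and of the genes of the wider lists with a mean of at least 1 FPKM, ordered by level; points are means and bars the range over 5 saline (blue) or 5 StcE (red) samples. The members run from *Procr* at the top, with 906.4 FPKM after StcE, to *F3* at 0.217 FPKM with saline.

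Of the members, 3 rose after StcE and none fell. *Plaur*, *Plau* and *Procr* were past the threshold (limma adjusted p under 0.05 over 11062 genes with a mean of at least 1 FPKM), 3 of the 7 members tested, where 11.9% of all tested genes passed and 5.52% were higher. By limma 0 of the 7 were lower at an adjusted p under 0.05, where 6.41% of all tested genes were lower. For 7 genes this is near that share. With voom 0 of the 7 were lower, beside 748 of 10445 genes. Also at an unadjusted p under 0.05, 0 of the 7 were lower, a threshold for which the share of all genes is not given here. For each of the 3 that rose, every StcE sample lay above every saline sample, as it did for 4.85% of tested genes. No member had every StcE sample below every saline sample, which held for 5.8% of tested genes. The median log2 change over the 7 tested members was 0.11, against -6.6e-04 over all tested genes. Changes were differences of log2(FPKM + 1) throughout, StcE minus saline.

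**Figure D2:**
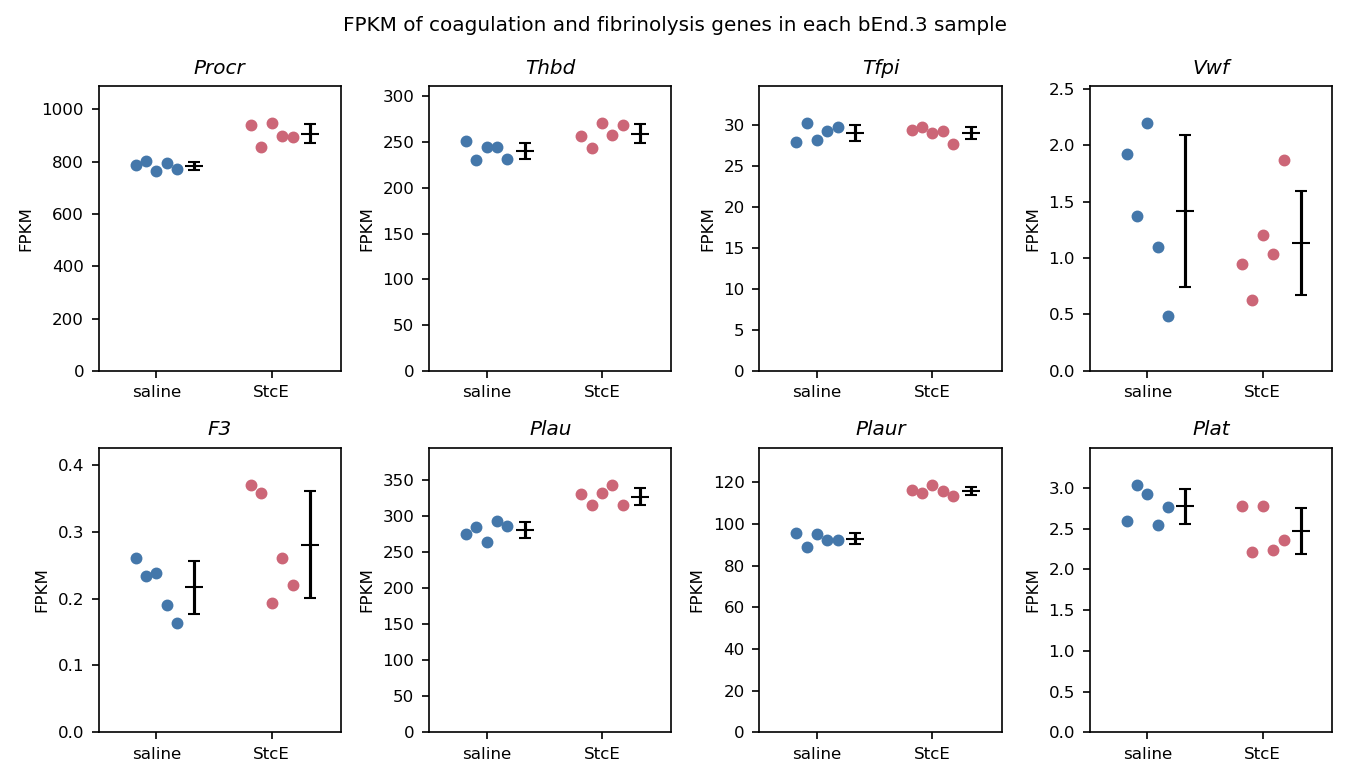
FPKM of each member in each sample of bEnd.3 cells, with saline in blue and StcE in red; black bars give the mean and SD of 5 samples, and each vertical axis starts at 0. The groups separate for *Procr*, *Plau* and *Plaur* and overlap for *Thbd*, *Tfpi*, *Vwf*, *F3* and *Plat*.

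Among the plasminogen genes, the largest rise was that of the urokinase receptor. *Plaur* (chromosome 7, 24462484 to 24475968) was at 95.8, 89.2, 95.4, 92.4 and 92.2 FPKM in saline replicates 1, 2, 3, 4 and 5. It was at 116.2, 115.1, 118.9, 116.1 and 113.3 FPKM in StcE replicates 1, 2, 3, 5 and 6. The lowest StcE sample was therefore well above the highest saline sample, and the values within each group lay close together. The mean rose from 93.0 ± 2.72 to 115.9 ± 2.04 FPKM (SD, n = 5 each), a rise of 24.7% and a log2 change of 0.32 (standard error 0.0242, limma adjusted p = 9.8e-06). Between 5544 and 10795 fragments per sample lay behind this gene.

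Its ligand rose as well. *Plau*, the urokinase-type activator (chromosome 14, 20836660 to 20843385), was at 274.2, 284.2, 264.4, 293.0 and 286.4 FPKM in the saline samples. In the StcE samples it was at 330.0, 315.1, 331.0, 343.2 and 314.7 FPKM, all above the saline samples. The mean went from 280.5 ± 11.2 FPKM (SD, n = 5) to 326.8 FPKM, with a range of 314.7 to 343.2 FPKM (n = 5), a rise of 16.5% and a log2 change of 0.22 (standard error 0.0334, limma adjusted p = 0.00183). Within a sample, the FPKM of *Plaur* was 0.314 to 0.361 times that of *Plau* with saline and 0.338 to 0.365 times with StcE, and these ranges overlapped.

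*Plat*, the tissue-type activator (chromosome 8, 22757727 to 22782844), was far less abundant than *Plau* and did not pass the test. It was at 2.60, 3.04, 2.92, 2.54 and 2.76 FPKM with saline. With StcE it was at 2.78, 2.21, 2.77, 2.23 and 2.36 FPKM, so that 3 of the 5 StcE samples lay below all saline samples and 2 lay among them. The mean FPKM was 10.9% lower with StcE. With the pseudocount of 1, which understates changes at this level, the log2 change was -0.12 (95% interval -0.25 to 0.0098, limma adjusted p = 0.214). Between 364 and 600 fragments per sample lay behind this gene. The ratio of *Plau* to *Plat* within a sample was 90.5 to 115.2 with saline and 118.8 to 153.7 with StcE. These ranges did not overlap, but the ratio was chosen after the values had been seen and was not tested.

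On the anticoagulant side, the protein C receptor rose. *Procr* (chromosome 2, 155751117 to 155755471) was at 787, 804, 765, 792 and 770.3 FPKM in the saline samples. It was at 938, 857, 947, 898 and 893 FPKM in the StcE samples, the lowest being replicate 2. No StcE sample reached down to the saline range. The rise was 15.7%, a log2 change of 0.21 (standard error 0.0299, limma adjusted p = 0.00124). With 36913 to 66667 fragments per sample, counting error was small beside the spread between samples.

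*Thbd*, the thrombin receptor that works beside *Procr* (chromosome 2, 148404466 to 148408188), was higher on average but missed the threshold. Its saline samples were at 251.0, 230.6, 244.4, 244.2 and 231.1 FPKM. Its StcE samples were at 256.1, 243.6, 270.5, 257.3 and 268.4 FPKM, and 4 of the 5 lay above every saline sample, while replicate 2 lay among them. The log2 change was 0.11 (95% interval 0.034 to 0.18, limma adjusted p = 0.0618; exact two-sided permutation test, p = 0.0317, unadjusted). It passed the threshold without StcE replicate 2 (limma adjusted p = 0.0277), with FPKM rescaled by the total of recovered fragments (0.0468) and with voom on the fragments (0.0188). The range of the limma adjusted p over all 22 alternatives was 0.0188 to 0.167. The ratio of *Procr* to *Thbd* in a sample was 3.13 to 3.48 with saline and 3.33 to 3.66 with StcE, overlapping ranges.

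*Tfpi*, the inhibitor of the tissue factor pathway (chromosome 2, 84432855 to 84476775), stayed within its saline range in 4 of the 5 StcE samples. The saline samples were at 27.9, 30.2, 28.2, 29.2 and 29.7 FPKM and the StcE samples at 29.3, 29.7, 29.0, 29.3 and 27.7 FPKM. The log2 change was -0.0016, with a 95% interval of -0.064 to 0.060 (limma adjusted p = 0.980). A change as large as that of *Procr* lies outside this interval.

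*F3*, tissue factor (chromosome 3, 121723537 to 121735048), had a mean FPKM under 1 and was left out of the test across genes. The saline samples were at 0.260, 0.234, 0.238, 0.190 and 0.163 FPKM, from 20, 15, 16, 11 and 10 fragments. The StcE samples were at 0.370, 0.358, 0.194, 0.260 and 0.220 FPKM, from 22, 25, 17, 23 and 14 fragments. Replicates 1 and 2 of StcE were above all saline samples and the other 3 were not. The highest value carried a 95% exact Poisson interval of 0.232 to 0.560 FPKM and the lowest one of 0.0781 to 0.299 FPKM, so these overlap from counting alone. A difference was not detectable at this depth (exact two-sided permutation test, p = 0.183).

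*Vwf*, the platelet-capturing factor stored by endothelium (chromosome 6, 125546774 to 125686679), differed more between replicates than between groups. It was at 1.92, 1.37, 2.19, 1.10 and 0.489 FPKM in the saline samples, a 4.49-fold range. In the StcE samples it was at 0.950, 0.624, 1.20, 1.04 and 1.87 FPKM, a 3.00-fold range. High and low samples occurred in both groups, and every StcE sample fell inside the saline range. The mean FPKM was 19.8% lower with StcE. With the pseudocount of 1, which understates changes at this level, the log2 change was -0.15 with a wide interval, -0.59 to 0.28 (limma adjusted p = 0.666). Counting error did not span this range, since saline replicate 5 held 191 fragments (95% exact Poisson interval 0.422 to 0.564 FPKM) and saline replicate 3 held 939 (2.06 to 2.34 FPKM).

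Compared with genes of like abundance, the spread of *Vwf* was wide. Its within-group SD of log2(FPKM + 1) was 0.373. Of the 1279 other genes within 1.5-fold of its mean level, 90 had a larger SD and the median was 0.0974. For the other tested members, 21.6% (*Plaur*) to 67.3% (*Plat*) of the genes within 1.5-fold of their level had a smaller SD, against 93.0% for *Vwf*.

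**Figure D3:**
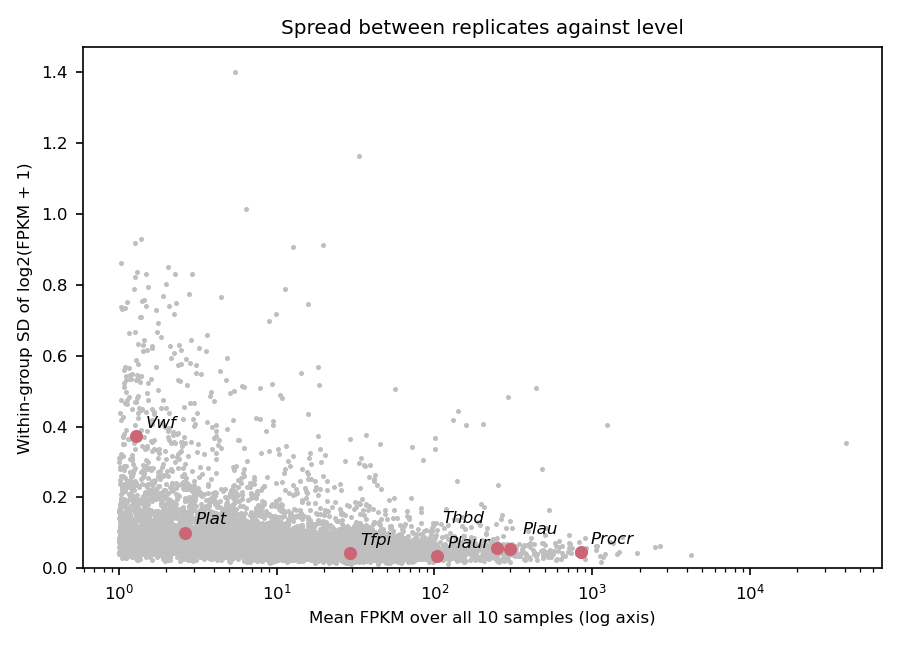
Within-group SD of log2(FPKM + 1) against mean FPKM (log axis) for all tested genes (grey) and the 7 tested members (red). *Vwf* stands at an SD of 0.373, above most genes of its level, whereas *Plaur*, *Tfpi*, *Procr*, *Plau* and *Thbd* lie at 0.0346 to 0.0573.

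The pattern over the 10 samples was then compared with that of the 11061 other tested genes, by the mean absolute difference of values standardised per gene. For *Vwf* the most similar genes were *Olfm2* (0.222 SD units) and *Fbln2*, an extracellular matrix protein (0.229), against a median of 1.12 over all genes. *Olfm2* was at 2.22, 1.70, 2.63, 1.21 and 0.988 FPKM in the saline samples and at 1.31, 1.02, 1.59, 1.38 and 1.76 FPKM in the StcE samples. Like *Vwf*, *Olfm2* was highest in saline replicate 3 and lowest in saline replicate 5. *Fbln2* was lowest in StcE replicate 2, at 2.35 FPKM, and next lowest in saline replicate 5, at 2.42 FPKM. Both genes were picked for this likeness, which concerns standardised values and not the size of the spread. The range of *Fbln2* was 2.42 to 3.81 FPKM with saline and 2.35 to 4.09 FPKM with StcE.

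For *Plaur* the most similar genes were *Timp1*, a metalloproteinase inhibitor (0.104 SD units), and *Lss*, an enzyme of sterol synthesis (0.120). *Timp1* rose from 88.5 to 122.0 FPKM, a log2 change of 0.46 (limma adjusted p = 5.1e-06), and *Lss* from 1.27 to 3.10 FPKM (log2 change 0.86, limma adjusted p = 2.3e-07). For *Plau* they were *Mmp3*, the metalloproteinase stromelysin (0.176), and *Bin1* (0.196). *Mmp3* rose from 43.1 to 62.6 FPKM, a log2 change of 0.53 (limma adjusted p = 4.6e-04). For *Procr* they were *4930503L19Rik* (0.0951) and *Tgif1* (0.0964), both past the threshold with log2 changes of 0.25 and 0.21. *Thbd* was closest to *Mapk6* (0.201) and *Plk2* (0.230), *Tfpi* to *Arhgdib* (0.238) and *Hnrnpa2b1* (0.273), and *Plat* to *Atp5e* (0.268) and *Gbp2* (0.323). Genes that differ between the groups resemble each other by that difference alone, and likeness is given as a description.

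**Figure D4:**
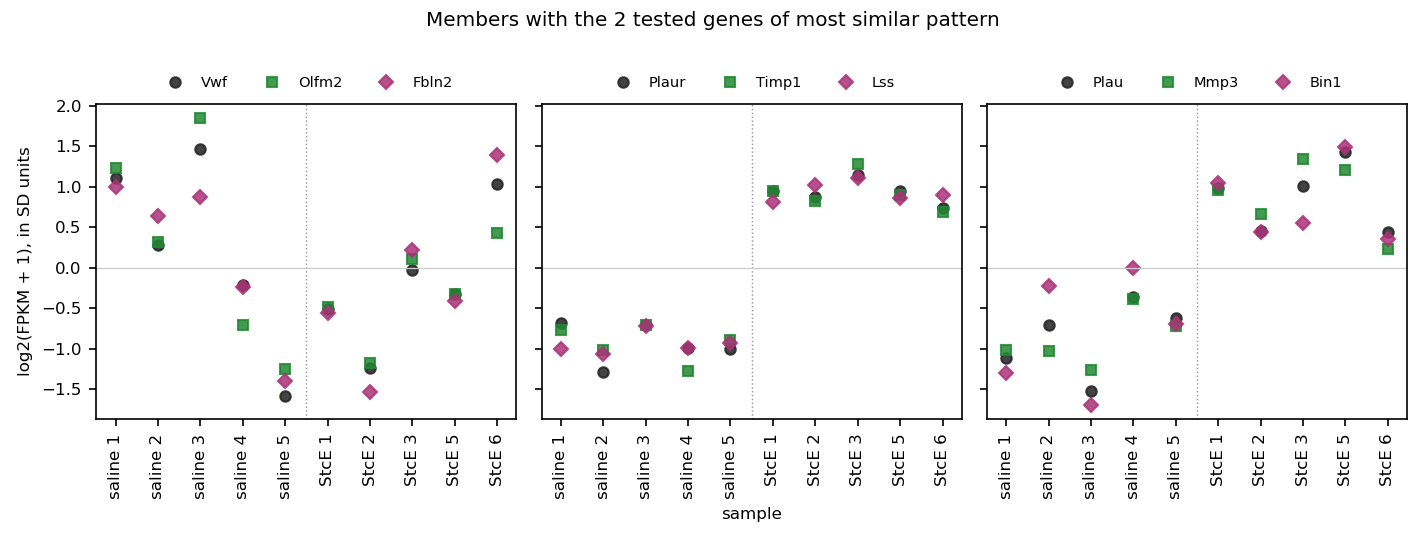
Values of log2(FPKM + 1), standardised per gene to SD units, in each sample for *Vwf*, *Plaur* and *Plau* with the 2 tested genes closest to each; the dotted line parts saline from StcE samples. *Plaur* and *Plau* with their neighbours separate by group, whereas *Vwf*, *Olfm2* and *Fbln2* vary together within both groups.

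The wider system was examined in 65 further genes in 8 lists. Of these, 34 had a mean of at least 1 FPKM and were tested, 5 were higher and 5 lower past the threshold (beside 5.52% and 6.41% of all genes), and the median log2 change was 0.0090. Of 13 coagulation factor genes, only *F8* was expressed at a level that was tested, and it was not past the threshold (5.66 ± 0.343 and 6.24 ± 0.355 FPKM, SD, n = 5 each, limma adjusted p = 0.103). The other 12 were under 0.1 FPKM in every sample or were not analysed here.

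Receptors for thrombin moved in opposite directions, with 1 of 2 tested higher and 1 lower, beside 5.52% and 6.41% of all tested genes. *F2r*, which encodes PAR1, the main thrombin receptor of endothelium, was at 75.8, 79.6, 76.1, 71.6 and 75.4 FPKM with saline. It was at 58.4, 67.6, 56.7, 61.7 and 60.5 FPKM with StcE, all below the saline samples, and its log2 change was -0.31 (standard error 0.0438, limma adjusted p = 0.00118). *F2rl3*, which encodes PAR4, was at 8.83 to 11.1 FPKM with saline and at 11.7 to 14.8 FPKM with StcE, without overlap, and its log2 change was 0.38 (standard error 0.0705, limma adjusted p = 0.00518). Over 26.7% of its longest transcript, *F2rl3* has a near-identical copy in another gene model, *Gm29705*, so that its value is less certain. The ratio of *F2rl3* to *F2r* in a sample was 0.112 to 0.155 with saline and 0.173 to 0.240 with StcE. Because each gene alone parted the groups, in opposite directions, their ratio had to part them as well. It was chosen after the values had been seen and was not tested. *F2rl1* and *F2rl2* were under the filter.

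The tested genes for plasminogen binding and for clearance of its activators (*Anxa2*, *S100a10*, *Plgrkt*, *Lrp1* and *Igf2r*) did not pass the test in either direction (0 of 5 by limma, with 0 of the 5 at an unadjusted p under 0.05). At an adjusted p under 0.05, 11.9% of all tested genes passed. *Anxa2* and *S100a10*, which together form a plasminogen-binding complex, were at 491.1 and 242.5 FPKM with saline and 508.2 and 253.4 FPKM with StcE (limma adjusted p = 0.274 and 0.366).

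**Figure D5:**
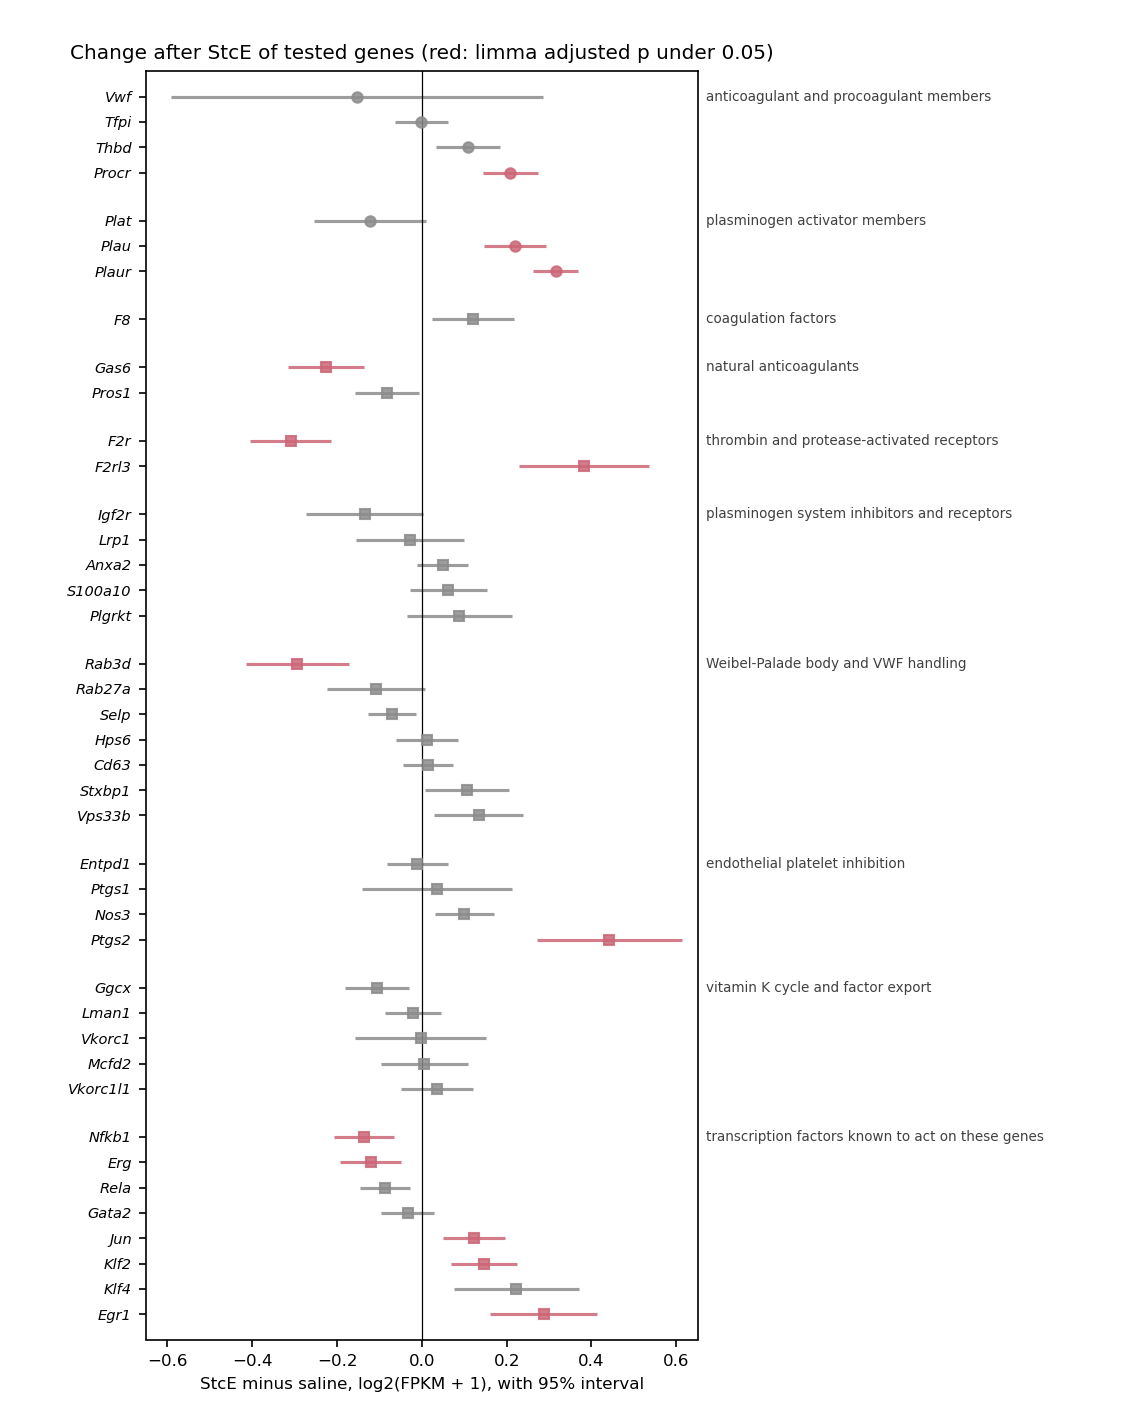
Difference between StcE and saline on the log2(FPKM + 1) scale with its 95% interval for the 7 tested members (circles) and 34 tested genes of the wider lists (squares), grouped by role; red marks limma adjusted p under 0.05. The members that rose are *Procr*, *Plau* and *Plaur*, and *Vwf* has the widest interval.

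Outside the members, 2 genes of natural anticoagulants and related proteins were tested. Of these 1 was lower and 0 higher, beside 6.41% and 5.52% of all tested genes. *Gas6*, a ligand of the TAM receptors related to protein S, is listed here by that relation and not as an anticoagulant. It fell from 21.7 ± 1.21 to 18.4 ± 0.861 FPKM (SD, n = 5 each, log2 change -0.23, limma adjusted p = 0.00488), without overlap. Over 1.33% of its exon bases *Gas6* overlaps a gene on the opposite strand. *Pros1*, protein S itself, was at 24.6 and 23.1 FPKM and did not pass (limma adjusted p = 0.141).

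Of 7 tested genes for the storage and release of *Vwf*, 1 fell and none rose, where 6.41% of all tested genes were lower and 5.52% higher. *Rab3d*, a GTPase of secretory granules, went from 3.61 ± 0.394 to 2.75 ± 0.102 FPKM (SD, n = 5 each; log2 change -0.29, limma adjusted p = 0.00626). *Cd63*, a membrane protein of these granules and the most abundant of the list, was at 110.1 and 111.3 FPKM (limma adjusted p = 0.757). *Selp*, P-selectin, which shares these granules with von Willebrand factor, was at 51.7 and 49.2 FPKM and did not pass. The SD of *Selp* was 2.35% of its mean with saline and 2.96% with StcE, against 47.6% and 40.5% for *Vwf*.

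Of 4 tested genes by which endothelium restrains platelets, 1 rose and 0 fell, beside 5.52% and 6.41% of all tested genes. The gene that rose was *Ptgs2*, the inducible cyclooxygenase. It was at 58.6 ± 6.61 FPKM with saline and 79.9 ± 7.25 with StcE (SD, n = 5 each). The log2 change was 0.44 (standard error 0.0781, limma adjusted p = 0.00417), and every StcE sample was higher, as for 4.85% of tested genes. *Nos3*, endothelial nitric oxide synthase, was the most abundant, at 287.4 and 307.8 FPKM, and missed the threshold (limma adjusted p = 0.0628). *Ptgis*, prostacyclin synthase, was under the filter, at 0.605 and 0.680 FPKM. All 5 genes of the vitamin K cycle and factor export were tested and 0 passed by limma, beside 11.9% of all tested genes. The most abundant of these, *Mcfd2*, was at 27.9 FPKM with saline (log2 change 0.0059). An unadjusted p under 0.05 was found for 1 of the 5 (*Ggcx*), and the share of all genes at that threshold is not given here.

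Transcription factors known to act on genes of this system were called in both directions, 3 higher and 2 lower of 8 tested. Of all tested genes, 5.52% were higher and 6.41% lower. In 22 alternatives, the call of *Klf2* was lost in 4, that of *Nfkb1* in 3 and that of *Egr1* in 1. *Klf2*, which is known to induce *Thbd* in endothelium, was at 81.4 ± 4.19 FPKM with saline and 90.1 ± 2.53 with StcE (SD, n = 5 each; log2 change 0.15, limma adjusted p = 0.0219). *Egr1*, an immediate early factor, was at 3.20 ± 0.342 and 4.12 ± 0.253 FPKM (log2 change 0.29, limma adjusted p = 0.00834). *Jun*, an AP-1 subunit, was at 56.8 ± 2.94 and 61.9 ± 1.30 FPKM (log2 change 0.12, limma adjusted p = 0.0350), a call lost in 13 of 22 alternatives, and 7.28% of its exon bases overlap an antisense gene. *Fos* was under the filter. *Nfkb1* fell, from 9.41 ± 0.319 to 8.48 ± 0.329 FPKM (log2 change -0.14, limma adjusted p = 0.0196). *Erg*, an endothelial ETS factor, fell from 125.1 ± 1.85 to 115.1 ± 6.05 FPKM (log2 change -0.12, limma adjusted p = 0.0356), a call lost in 15 of 22 alternatives.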

How the data were processed

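Poly-adenylated RNA of 10 samples was sequenced as strand-specific libraries. The authors aligned trimmed read pairs to GRCm38 and deposited FPKM per gene and sample, and their processing notes name HISAT2 2.0.5, featureCounts 1.5.0-p3 and DESeq2 1.32.0. The annotation release is not given in the sources used here. Rows without a name or values (22874) were dropped.

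FPKM were multiplied by exon lengths from GENCODE vM21. With a tolerance of 0.05 fragments, 96.6% of values above 0 were whole fragments. Genes with a mean of at least 1 FPKM (11062) entered limma 3.58.1 (R 4.3.3, eBayes with trend, Benjamini-Hochberg) as log2(FPKM + 1). A pseudocount of 1 understates the change of low genes. Counting intervals cover counting error only. In simulated data for this comparison on 11062 genes, 98 of 200 changes of 0.2 and 193 of 200 changes of 0.5 (log2) were recovered, with 7 false calls each.

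The members, gene lists and tests were chosen with earlier results of these data known. Named genes were all members, wider-list genes past the threshold, the most abundant tested gene of each list, and the 2 genes of most similar pattern; others were chosen after their values were seen. BLAST 2.17.0 (at least 95% identity over 150 bases) found no near-identical copy of any member in another gene, and no member's exons overlap another gene. Alternatives were a pseudocount of 0.1, filters at 0.1 or none, 3 rescalings, voom, other variance settings, array weights, the replicate block and each sample left out. A gene of the wider lists is not reported here.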

Additional observations from a re-analysis of the deposited data

Results flagged for a closer look

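*Egr1* was at 3.69 FPKM in StcE replicate 2, apart from the other StcE samples at 4.16 to 4.35 FPKM. It was the only sample apart among 36 groups of 5 examined (8 members and 10 called genes of the wider lists, in each group), where chance gives about 1.8. StcE replicate 2 was also the lowest of its group for *Procr*, *Thbd*, *Vwf* and *Plat*.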

How the results depend on the processing

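The rises of *Plaur* (log2 change 0.30 to 0.33), *Plau* (0.20 to 0.25) and *Procr* (0.19 to 0.23) kept their direction and passed the threshold in all 22 alternatives, with a largest limma adjusted p of 0.0495 for *Procr* with the replicate block. *Plat* and *Vwf* kept their direction without passing in any of the 22, and *F3*, which 2 alternatives tested, did not pass. *Thbd* rose in all 22 and passed in 3, with a log2 change of 0.12 after rescaling by total fragments or voom, and of 0.093 to 0.13 across fits that each left out 1 sample. *Tfpi*, near 0, changed sign in 11, with values of 5.2e-04 (median ratio), 0.0029 (upper quartile), 0.0075 (total fragments), 0.0090 (voom), 0.0092 (array weights), 0.017 (replicate block, and the same 8 samples without it) and -0.016 to 0.014 leaving out 1 sample. The cause was not tested.

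Members past the threshold numbered 3 or 4, all higher. Called genes of the wider lists (10, with 5 higher and 5 lower) were 5 with the replicate block (2 higher, 3 lower). In the same 8 samples without the block 3 were lower, and there were 3 higher without a filter and 8 higher with voom. Leaving out 1 sample gave 7 to 11 in all, 3 to 5 higher and 4 to 7 lower, with 3 higher without StcE replicate 3. Over all genes the 1320 calls (611 higher, 709 lower) became 801 without a filter (392 and 409, more genes being tested), 349 with the block (187 and 162) and 885, of which 452 lower, in the same samples without it. Leaving out 1 sample gave 793 to 1255 (384 to 588 higher, 409 to 667 lower), the lowest without StcE replicate 3 and 838 (428 lower) without saline replicate 1. Samples of the same number did not deviate together (correlations of -0.097 to 0.054 over 4 pairs). Samples of different number were not compared, so these values cannot decide whether the numbers mark a shared batch. With the block, *Klf2*, *Erg*, *Egr1*, *Jun* and *Nfkb1* were no longer called, and no call of a member changed. Of these 5, *Egr1* was still called in the same 8 samples without the block (limma adjusted p = 0.0435, and 0.0895 with it), and the other 4 were not. The 8 samples without the block were added after seeing the data. *F3*, at 10 to 25 fragments per sample, was limited by depth.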

Other observations

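Of 5 platelet and megakaryocyte markers, *Pf4*, a chemokine of platelet granules, was at 13.9 ± 1.48 FPKM with saline and 13.6 ± 0.717 with StcE (SD, n = 5 each; limma adjusted p = 0.834), although *Ppbp*, *Itga2b*, *Gp1ba* and *Gp9* each had a mean under 1 FPKM. Of 5 macrophage and leukocyte markers, *Cd68* was at 20.4 and 19.7 FPKM (limma adjusted p = 0.521), while the other 4 were under 0.1 FPKM in every sample or had no row among those analysed here. Both genes were singled out after their values had been seen.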
